A study of Mus musculus with 16 samples.

Results

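The genes described here are 10 genes of fibroblasts and of the connective-tissue matrix, measured in the seminal vesicles (SV) of mice at week 5. They were taken by symbol from an RNA-seq table of 31274 genes and comprise the receptors *Pdgfra* and *Pdgfrb*, the collagen-binding *Dcn*, *Lum* and *Dpt*, the matrix glycoproteins *Fn1*, *Postn*, *Sparc* and *Fbln1*, and the surface marker *Thy1*. All 10 were in the table, and all 10 passed the minimum for testing, a mean above 1 FPKM (fragments scaled to the length of the transcript and the size of the library) in at least 1 group.

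The samples were C57BL/6 males in 4 groups of 4. WT and αERKO pups, the latter with both copies of the oestrogen receptor α gene *Esr1* disrupted in every tissue, received 2 µg of diethylstilbestrol (DES), a synthetic oestrogen, per pup and day under the skin on days 1 to 5 after birth, or the corn oil vehicle alone. With vehicle (veh) or DES the groups are called WT-veh and αERKO-veh, or WT-DES and αERKO-DES, with samples numbered 1 to 4 as in the labels. WT pups came from bought-in pregnant dams and αERKO pups from crosses of heterozygous parents, so the genotypes were not littermates, and the study's account of RNA extraction gives individual mice for 3 groups and 3 pools of mice for WT-DES, while the table has 4 WT-DES samples. Where WT-DES samples were pools, their spread is not the spread between single mice.

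Fibroblasts make the collagen fibrils, proteoglycans and adhesive glycoproteins that surround the epithelium and smooth muscle of the SV. The small proteoglycans decorin and lumican coat collagen fibrils and govern their spacing, fibronectin and periostin link cells to the matrix, and PDGF receptors transmit growth signals that mesenchymal cells receive from neighbouring cells. In the male accessory glands the stroma is also where steroid receptors act on the epithelium during development.

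All 10 genes are protein-coding. On GRCm38 with the GENCODE M21 annotation, *Dcn* (chr10:97479609-97518143) and *Lum* (chr10:97565128-97572703) lie on the plus strand as neighbours with 47.0 kb between them, and the other small proteoglycan genes *Kera* (chr10:97606879-97613692) and *Epyc* (chr10:97644068-97682454) follow. *Pdgfra* is at chr5:75152292-75198215, *Fbln1* at chr15:85205949-85286535, *Postn* at chr3:54361109-54391037 and *Thy1* at chr9:44043384-44048579, all on the plus strand. *Dpt* lies at chr1:164796644-164824266 on the plus strand, *Fn1* at chr1:71585520-71653200 and *Sparc* at chr11:55394500-55423183 on the minus strand.

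The promoters of 3 of the genes that rose after DES in WT are shown, as the 250 bases before a RefSeq start on GRCm38.p6, plus strand, read 5′ to 3′. They are chr5:75152001-75152250 for *Pdgfra*, chr15:85205699-85205948 for *Fbln1* and chr3:54360857-54361106 for *Postn*, and none of them overlaps an annotated exon. Capitals mark a TATA box, TATAAA.
Pdgfra: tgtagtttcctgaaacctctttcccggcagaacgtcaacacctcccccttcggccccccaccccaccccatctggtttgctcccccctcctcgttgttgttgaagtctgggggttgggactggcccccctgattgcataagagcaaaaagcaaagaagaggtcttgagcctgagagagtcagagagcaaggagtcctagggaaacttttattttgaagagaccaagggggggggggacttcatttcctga
Fbln1: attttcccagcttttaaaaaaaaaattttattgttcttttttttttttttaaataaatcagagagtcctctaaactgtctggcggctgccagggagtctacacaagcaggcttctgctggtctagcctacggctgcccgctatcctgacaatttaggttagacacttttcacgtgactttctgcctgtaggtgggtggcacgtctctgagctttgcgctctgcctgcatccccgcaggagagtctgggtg
Postn: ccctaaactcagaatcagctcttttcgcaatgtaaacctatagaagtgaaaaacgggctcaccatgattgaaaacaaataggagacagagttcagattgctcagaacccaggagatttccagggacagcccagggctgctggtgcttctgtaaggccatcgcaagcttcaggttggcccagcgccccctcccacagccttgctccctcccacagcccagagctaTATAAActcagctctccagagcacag
The RefSeq table had 7 starts for 5 of the genes, namely *Pdgfra*, *Dpt*, *Sparc*, and 2 starts each for *Postn* and *Fbln1*. None of the 7 windows held the full oestrogen response element, GGTCA and TGACC with any 3 bases between them, which 0.0639% of 32851 promoters of the same length held on either strand. The half-site GGTCA, which is part of that element, was in the *Sparc* window and in the window of the other *Postn* start, against 35.2% of all promoters. Of the 250 bases of the *Sparc* window (chr11:55420081-55420330, minus strand), 238 lie in annotated exons and the window is inside the gene as GENCODE places it, so it is not upstream of that gene model. The *Dpt* window and that of the other *Fbln1* start have 19 and 59 bases in annotated exons. The TATA box shown was in 1 window (12.4% of all promoters) and a GC box, GGGCGG, in the window of the other *Fbln1* start (32.7%). AP-1 sites, TGANTCA (6.75%), CCAAT boxes (33.8%) and the CArG box (1.47%) were in none. These are matches of letters in a window and not tested sites.

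*Esr1* itself was at 2.81 to 4.55 FPKM in WT-veh, 8.74 to 19.6 FPKM in WT-DES, 1.30 to 1.75 FPKM in αERKO-veh and 0.91 to 1.64 FPKM in αERKO-DES, so that both αERKO groups lay below both WT groups in every sample. Read depth is not known from FPKM, and precision rests on the 4 samples of a group. The sum of all FPKM lay between 590446 and 652708 for WT-veh and between 375207 and 437619 for WT-DES. The 8 SV secretory genes summed to 49597 to 57994 FPKM in WT-veh and 2436 to 7951 FPKM in WT-DES, and 3 prostate genes, of a gland dissected away from the SV, to 3835 to 5049 FPKM and 20.6 to 360 FPKM. WT-DES sample 1 stood apart, with a smooth muscle marker sum of 3881 FPKM against 862 to 1351 FPKM in the other WT-DES samples.

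Every member was well above 1 FPKM in every sample, the lowest single value being 9.5 FPKM for *Pdgfrb*. In WT-veh the order of mean levels, which FPKM gives per transcript length, began with *Sparc* at 676 ± 49.7 FPKM (SD, n = 4) and *Dcn* at 255 ± 21.1 FPKM and ended with *Pdgfrb* at 12.1 ± 0.99 FPKM and *Pdgfra* at 11.6 ± 1.35 FPKM. Neighbours in that order had overlapping ranges for *Lum* and *Fbln1*, *Fbln1* and *Fn1*, and *Pdgfrb* and *Pdgfra*, and ranges apart for the others. *Sparc* came first in every sample outside WT-DES. In WT-DES *Dcn* exceeded *Sparc* in 4 of 4 samples, and *Fbln1* and *Lum*, which overlapped, followed.

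**Figure D1:**
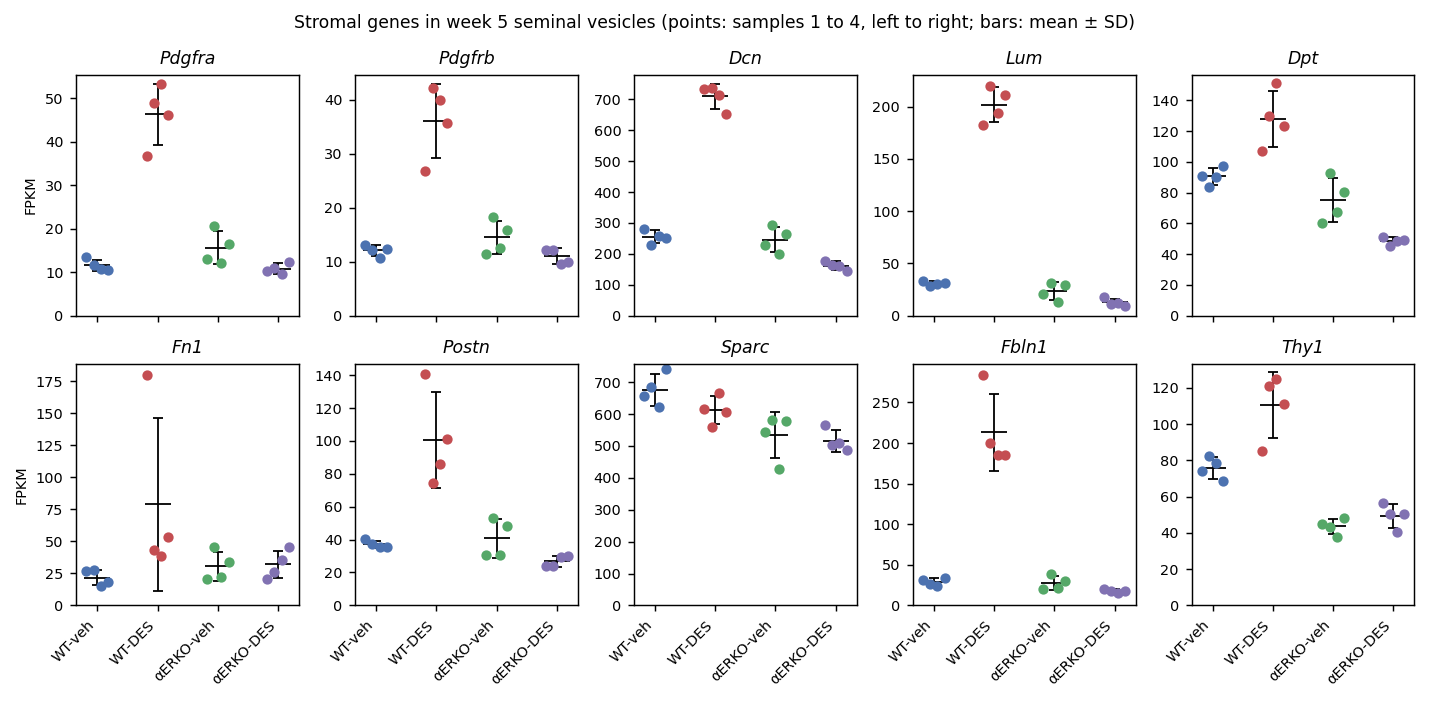
FPKM (vertical axes, linear from 0) of the 10 genes by genotype and treatment, with a point per sample in the order 1 to 4 and bars for mean ± SD. For 9 genes all WT-DES points lie above all WT-veh points, and *Sparc* overlaps between the groups.

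DES in WT was compared with vehicle to ask which stromal genes a neonatal oestrogen leaves altered at puberty. Of the 10 genes, 7 rose, 0 fell and 3 were not called, called meaning that the adjusted p was 0.05 or less and that the group means differed by 1.5-fold or more. Over all 15988 genes tested 52.7% were called and 28.9% were called higher. The median log2 change was 1.48 over the 10 genes and -0.01 over all genes tested. The WT-DES samples lay wholly above the WT-veh samples in 9 of the 10, against 32.7% of all genes tested. In whole tissue, fewer cells of a type and less RNA per cell cannot be told apart, and the same holds for more cells and more RNA per cell. Of the markers of other cell types, all 8 endothelial, 10 leukocyte, 6 T cell and 4 mesothelial markers were called higher in WT-DES. So were 5 of 6 pericyte, 5 of 8 adipocyte and 4 of 5 Schwann cell markers. Called lower were 5 of 9 smooth muscle, 5 of 7 epithelial and 3 of 14 skeletal muscle markers, against 23.9% of all genes called lower. The part of these markers in the members' changes was not tested.

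Both PDGF receptors rose. *Pdgfra*, the receptor that marks most fibroblasts, was at 13.5, 11.7, 10.7 and 10.5 FPKM in WT-veh samples 1 to 4 and at 36.7, 49.0, 53.3 and 46.2 FPKM in WT-DES. The groups were far apart, and WT-DES sample 1 was the lowest of its group. The ratio of means was 4.0 and the log2 change 1.90 ± 0.15 (SE, adjusted p = 3.26e-08). *Pdgfrb*, found on fibroblasts, pericytes and vascular smooth muscle, was at 13.1, 12.2, 10.7 and 12.5 FPKM in WT-veh and at 26.8, 42.3, 40.0 and 35.7 FPKM in WT-DES. Sample 1 was again the lowest WT-DES sample, yet above every WT-veh sample. Its ratio was 2.99 and its log2 change 1.49 ± 0.15 (adjusted p = 5.25e-07). Summed pericyte markers were also higher, at 76.4 to 83.2 FPKM in WT-veh and 148 to 211 FPKM in WT-DES, with 5 of 6 called higher. In WT-DES samples 1 to 4 they summed to 211, 148, 152 and 198 FPKM, the opposite order to *Pdgfrb*. The part of these markers in the *Pdgfrb* result was not tested.

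The neighbouring genes *Dcn* and *Lum* both rose, *Lum* by more. *Dcn*, which encodes decorin, was at 281, 230, 257 and 251 FPKM in WT-veh and at 735, 738, 715 and 652 FPKM in WT-DES. The WT-DES samples were close to each other and well above WT-veh. The ratio was 2.79 and the log2 change 1.48 ± 0.11 (adjusted p = 2.54e-08), and 2.83 with quantile normalization. *Lum*, which encodes lumican, was at 33.3, 28.8, 30.7 and 31.3 FPKM in WT-veh and at 183, 220, 194 and 211 FPKM in WT-DES. No WT-DES sample came near the WT-veh range. For *Lum* the ratio was 6.51 and the log2 change 2.66 ± 0.22 (adjusted p = 5.52e-08). *Dpt*, which encodes dermatopontin, a binding partner of decorin, was at 91.1, 83.9, 90.3 and 97.5 FPKM in WT-veh and at 107, 130, 152 and 123 FPKM in WT-DES. Its groups did not overlap, but the ratio of 1.41 stayed under the fold required, so that *Dpt* was not called (log2 change 0.48 ± 0.12, adjusted p = 0.00209).

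Among the glycoproteins, 3 rose and *Sparc* did not. *Fbln1*, which encodes fibulin-1, a protein of elastic fibres and basement membranes, was at 31.6, 26.1, 24.4 and 33.8 FPKM in WT-veh and at 284, 201, 185 and 185 FPKM in WT-DES. WT-DES sample 1 was the highest, and the other 3 were close to each other. The ratio of 7.37 (log2 change 2.83 ± 0.19, adjusted p = 7.74e-09) was the largest of the 10 genes. Without that sample the log2 change was 2.68, below that of *Lum* at 2.71.

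*Postn*, which encodes periostin, a matricellular protein of growing and remodelled tissue, was at 40.2, 37.5, 35.4 and 35.5 FPKM in WT-veh and at 141, 74.1, 85.7 and 101 FPKM in WT-DES. Sample 1 was the highest here too. The ratio was 2.70 and the log2 change 1.37 ± 0.20 (adjusted p = 1.71e-05). *Fn1*, which encodes fibronectin, was at 26.5, 27.4, 15.2 and 17.9 FPKM in WT-veh and at 180.0, 43.0, 38.7 and 53.8 FPKM in WT-DES. A single WT-DES sample, again sample 1, set most of the group's mean, though the other 3 were also above WT-veh. The ratio was 3.63 and the log2 change 1.54 ± 0.41 (adjusted p = 0.00357), and without that sample the log2 change was 1.05 (adjusted p = 0.00537).

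*Sparc*, which encodes a collagen-binding protein of matrix assembly, was at 658, 684, 623 and 741 FPKM in WT-veh and at 615, 561, 667 and 606 FPKM in WT-DES. The ranges overlapped. Its log2 change was -0.14 (95% confidence interval -0.38 to 0.09, adjusted p = 0.244) on FPKM as deposited. With quantile normalization the direction turned, and *Sparc* was called higher by 1.05 on the log2 scale. *Thy1*, a surface glycoprotein of fibroblasts that T cells and neurons also carry, was at 74.0, 82.6, 78.7 and 68.4 FPKM in WT-veh and at 85.1, 121, 125 and 111 FPKM in WT-DES. The groups did not overlap, sample 1 being the nearest to WT-veh, and the ratio of 1.46 was under the fold required (log2 change 0.52 ± 0.12, adjusted p = 0.00132). Without WT-DES sample 1 *Thy1* was called, at 0.64, and without WT-veh sample 2 at 0.57. The 6 T cell markers were all called higher, with sums of 7.33 to 13.1 FPKM in WT-veh and 25.4 to 115 FPKM in WT-DES, and their part in the *Thy1* values was not tested.

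WT-DES sample 1 differed from the other 3 in the members as in the markers. It was the highest of its group for *Fn1*, *Postn* and *Fbln1* and the lowest for *Pdgfra*, *Pdgfrb*, *Lum*, *Dpt* and *Thy1*. Its mesothelial markers summed to 127 FPKM against 34.2 to 52.9 FPKM in the others, and its endothelial markers to 177 FPKM against 244 to 296 FPKM. Without it 8 members were called higher in WT-DES instead of 7, *Thy1* being added, and 54.2% of all genes were called instead of 52.7%.

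**Figure D2:**
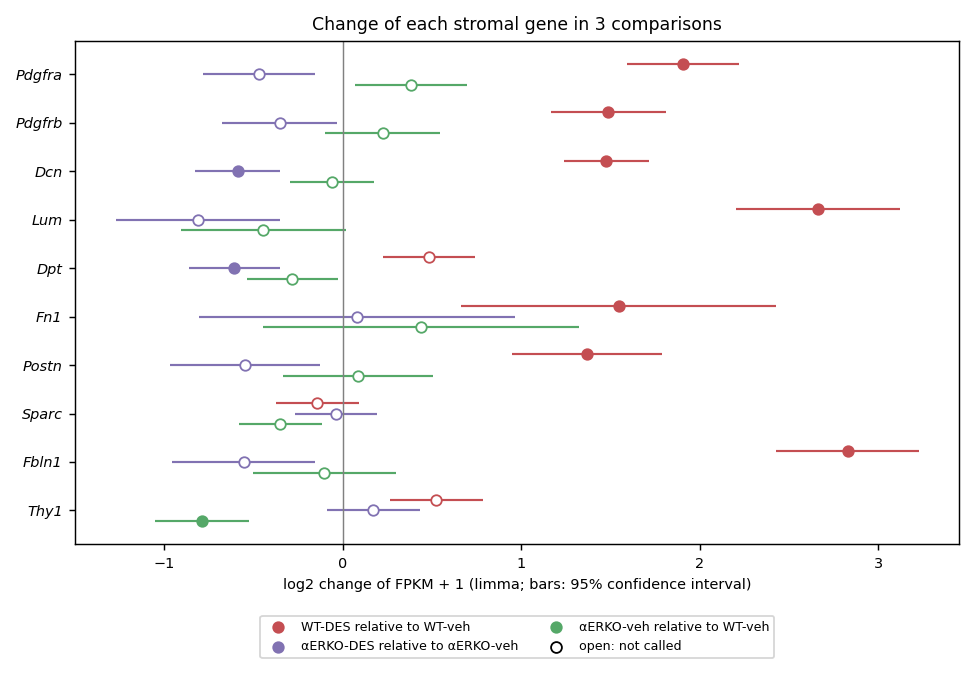
log2 change of FPKM + 1 with its 95% confidence interval (horizontal axis) for each gene in 3 comparisons, filled where called and open where not called. The WT-DES changes run from -0.14 for *Sparc* to 2.83 for *Fbln1*, while the αERKO-DES changes run from -0.81 for *Lum* to 0.17 for *Thy1*.

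Ratios of 2 genes within a sample do not depend on a constant factor for each library, though quantile normalization, which is no such factor, changes them. They are given here on FPKM as deposited. The ratio of *Dcn* to *Lum* lay between 7.98 and 8.44 for WT-veh and between 3.08 and 4.02 for WT-DES. For αERKO-veh it lay between 9.07 and 15.1, for αERKO-DES between 9.92 and 15.1, so every WT-DES sample was below every other sample. The ratio of *Dcn* to *Sparc* lay between 1.07 and 1.32 for WT-DES, above all other samples. It was 0.336 to 0.428 for WT-veh, 0.418 to 0.501 for αERKO-veh, and 0.297 to 0.328 for αERKO-DES. *Pdgfra* to *Pdgfrb* moved less, 0.842 to 1.03 for WT-veh against 1.16 to 1.37 for WT-DES, with no overlap between those groups.

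Relative to the mean of the other 9 genes in the same sample, on the log2 FPKM scale, *Lum* went from a median of -0.78 in WT-veh to 0.64 in WT-DES and *Fbln1* from -0.97 to 0.58. *Dcn* had medians of 2.59 and 2.61. *Sparc* went from 4.15 to 2.35, *Dpt* from 0.93 to -0.09 and *Thy1* from 0.63 to -0.23, each without overlap. With quantile normalization the spacing was different: *Dcn* rose by 2.83 on the log2 scale, close to *Lum* at 3.30, while *Fbln1* was at 3.45 and *Sparc* at 1.05. The 10 genes together made up 0.194% to 0.209% of summed FPKM in WT-veh and 0.515% to 0.581% in WT-DES. *Sparc* contributed 52.1% to 57.0% of the 10 genes' sum in WT-veh but 25.7% to 29.6% in WT-DES.

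**Figure D3:**
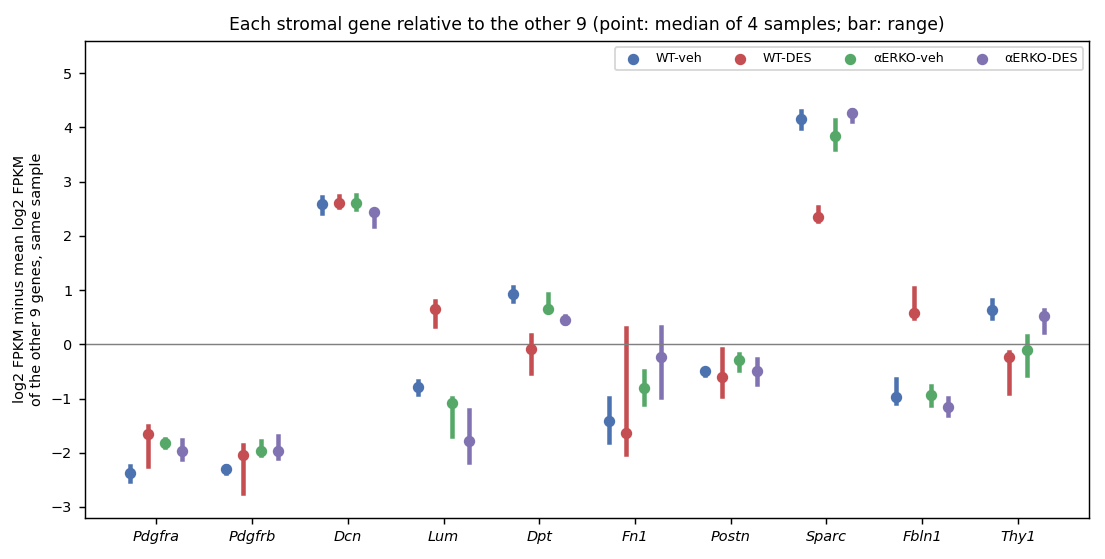
log2 FPKM of each gene minus the mean log2 FPKM of the other 9 genes in the same sample (vertical axis), as the median of 4 samples (point) with the range (bar), in the 4 groups. *Lum* and *Fbln1* stand higher in WT-DES than in the other 3 groups, and *Sparc* stands lower.

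Vehicle-treated αERKO was compared with WT-veh to ask what the receptor's absence alone does to these genes. Of the 10, 0 rose and 1, *Thy1*, fell in limma's test, against 7.12% of all genes called (2.63% lower), while 4 of the 10 had an unadjusted p under 0.05, as did 38.9% of all genes. *Thy1* was at 45.1, 43.3, 38.0 and 47.9 FPKM in αERKO-veh, below every WT-veh sample. Its mean was 43.6 ± 4.2 FPKM against 75.9 ± 6.11 FPKM, a log2 change of -0.79 ± 0.12 (adjusted p = 0.00361). Summed T cell markers were at 5.87 to 7.47 FPKM in αERKO-veh and 7.33 to 13.1 FPKM in WT-veh, with none of the 6 called, and their part in the *Thy1* values was not tested.

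*Sparc* was lower in αERKO-veh, at 544, 583, 428 and 577 FPKM, without overlap with WT-veh (log2 change -0.35, adjusted p = 0.0295), but its ratio of 0.788 did not reach the fold required. Lower without overlap were thus 2 of the 10, against 17.1% of all genes, and the other 8 overlapped between these groups. Their log2 changes lay between -0.44 for *Lum* (95% confidence interval -0.91 to 0.02) and 0.44 for *Fn1* (-0.45 to 1.32). αERKO-veh was uneven: sample 2 was the highest of its group for 9 of the 10 genes, all but *Thy1*, and sample 3 the lowest for 6. The same sample 2 had the group's highest adipocyte sum, 1146 FPKM against 91.6 to 465 FPKM, and the highest Schwann cell sum, 92.2 FPKM against 43.6 to 58.1 FPKM. Skeletal muscle markers summed to 791 to 2950 FPKM in αERKO-veh, with 6 of 14 called higher than in WT-veh, as were 2 of 6 pericyte and 2 of 8 endothelial markers. Transcript length moved with the samples too. Across 15048 genes, which are not independent, the Spearman correlation of length with a sample's deviation from the gene's mean log2 level was 0.444 in αERKO-veh sample 2, the highest of the 16 samples, and -0.09 to 0.258 in the other αERKO-veh samples. The WT-veh samples had values from -0.519 to -0.207, the WT-DES samples from 0.164 to 0.193 and the αERKO-DES samples from -0.284 to 0.169. With the correction for length the αERKO-veh change of *Pdgfra* went from 0.38 to 0.14, neither called, and *Thy1* was still called at -0.58. In WT-DES versus WT-veh that correction took *Pdgfra* from 1.90 to 1.54 and *Fn1* from 1.54 to 1.11, both still called.

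DES in αERKO was compared with vehicle in αERKO to ask whether the genes respond to DES without the receptor. None of the 10 rose, and *Dcn* and *Dpt* fell, against 1.49% of all genes called (1.41% lower), while 7 of the 10 had an unadjusted p under 0.05, as did 25.3% of all genes. *Dcn* was at 228, 292, 199 and 266 FPKM in αERKO-veh and at 178, 164, 161 and 145 FPKM in αERKO-DES. The groups did not overlap, though the highest αERKO-DES sample was close to the lowest αERKO-veh sample. The log2 change was -0.59 ± 0.11 (ratio 0.658, adjusted p = 0.0341). *Dpt* was at 60.3, 93.1, 67.5 and 80.5 FPKM in αERKO-veh and at 51.3, 45.4, 48.5 and 49.0 FPKM in αERKO-DES. Its αERKO-DES samples were tightly grouped below αERKO-veh, and its log2 change was -0.61 ± 0.12 (ratio 0.644, adjusted p = 0.0351). Without αERKO-veh sample 2 neither was called (adjusted p = 0.133 for *Dcn* and 0.134 for *Dpt*), and 0 members were called without WT-veh sample 3, αERKO-veh sample 4 or αERKO-DES sample 1, 2 or 3 either, each with 5 to 7 members at an unadjusted p under 0.05. In these 6 settings the calls over all genes also fell, from 239 to between 1 and 3, and the log2 changes stayed between -0.50 and -0.64 for *Dcn* and between -0.50 and -0.63 for *Dpt*. The count was 1 without αERKO-DES sample 4 (1.18% of all genes called), 5 without αERKO-veh sample 1 (4.08%) and 4 without αERKO-veh sample 3 (1.98%).

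*Lum* was at 20.7, 31.6, 13.2 and 29.3 FPKM in αERKO-veh and at 17.96, 11.6, 11.7 and 9.62 FPKM in αERKO-DES, with a log2 change of -0.81 ± 0.22 that missed the threshold (adjusted p = 0.0535). *Postn* was at 30.4 to 53.4 FPKM and 23.8 to 29.8 FPKM, without overlap, at an adjusted p of 0.114. With *Dcn* and *Dpt* it made 3 of the 10 that were lower without overlap, against 6.57% of all genes. *Fbln1*, *Pdgfra* and *Pdgfrb* had log2 changes of -0.56, -0.47 and -0.35 and overlapping ranges. *Fn1*, *Sparc* and *Thy1* changed by 0.08, -0.04 and 0.17, and the interval for *Fn1*, -0.80 to 0.97, leaves room for changes in either direction.

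Markers of other cell types moved between the αERKO groups as well. Adipocyte markers summed to 91.6 to 1146 FPKM in αERKO-veh and to 17.4 to 62.8 FPKM in αERKO-DES, with 6 of 8 called lower. Schwann cell markers went from 43.6 to 92.2 FPKM down to 19.7 to 33.1 FPKM, with 2 of 5 called lower, and 9 of the 14 skeletal muscle markers were called lower. So were 1 of 6 pericyte, 1 of 8 endothelial and 1 of 3 prostate markers. None of these lists had a marker at 0 in all samples of a group. Their part in the *Dcn* and *Dpt* results was not tested.

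Whether the change with DES differed between the genotypes was tested as an interaction, the WT change minus the αERKO change. It was called for 8 of the 10 genes, all with the higher value in WT, against 56.4% of all genes tested called and 29.6% called higher. The difference was 3.47 ± 0.31 on the log2 scale for *Lum* and 3.38 ± 0.27 for *Fbln1*. *Pdgfra* followed at 2.38, *Dcn* at 2.07, *Postn* at 1.92, *Pdgfrb* at 1.84 and *Dpt* at 1.09, with adjusted p between 6.83e-08 and 4.87e-05 over these 7 genes. *Fn1* was the least certain, at 1.46 ± 0.59 (adjusted p = 0.0361), and 0.97 without WT-DES sample 1 (adjusted p = 0.0433). Without WT-veh sample 3 or 4, αERKO-veh sample 2 or 4, or αERKO-DES sample 1 or 2, the *Fn1* interaction was not called (adjusted p from 0.0620 to 0.0775). For *Thy1* the difference was 0.35 (95% confidence interval -0.02 to 0.72, adjusted p = 0.0812). It was called with quantile normalization (1.08), with rescaling without the 20 genes of highest mean FPKM (0.91) and with a correction for transcript length (0.69). In these settings the adjusted p ran from 0.000396 to 0.00337. That rescaling moved the median of all genes by 0.50, and relative to that shift *Thy1* was at 0.41. The difference was -0.11 for *Sparc* (-0.43 to 0.22, adjusted p = 0.548), turning to 1.25 and called with quantile normalization. Among markers of other cell types the interaction was called, with the higher value in WT, for all 8 adipocyte, 8 endothelial, 6 T cell, 5 Schwann cell and 4 mesothelial markers, 9 of 10 leukocyte, 5 of 6 pericyte and 7 of 14 skeletal muscle markers. It was called with the lower value in WT for 5 of 9 smooth muscle, 6 of 7 epithelial and 2 of 14 skeletal muscle markers, against 26.9% of all genes. Their part in the members' interactions was not tested.

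Between the genotypes after DES, 9 of the 10 genes were lower in αERKO-DES than in WT-DES and 0 were higher, against 53.4% of all genes called and 29.6% called lower. In 8 of the 10 the αERKO-DES samples lay wholly below WT-DES, as in 32.7% of all genes. *Lum* was lowest in relation, at a mean of 12.7 ± 3.62 FPKM against 202 ± 16.9 FPKM, a 15.9-fold difference. *Fbln1* was 11.9-fold lower, at 17.9 ± 2.13 FPKM against 214 ± 47.4 FPKM, and *Dcn* 4.38-fold lower. *Thy1* was 2.24-fold lower, with αERKO-DES at 56.6, 50.2, 40.4 and 50.3 FPKM. *Fn1*, at 20.8, 26.2, 35.8 and 45.3 FPKM in αERKO-DES, was the only called gene whose groups overlapped, and without WT-DES sample 1 it was not called (log2 change -0.53, adjusted p = 0.120), nor was it without αERKO-DES sample 1 or 2 (adjusted p = 0.104 and 0.0789). *Sparc* was at 566, 502, 510 and 488 FPKM in αERKO-DES and was not called (log2 change -0.24, adjusted p = 0.0541). It was called lower with quantile normalization (-1.30, adjusted p = 1.23e-06) and with rescaling without the 20 genes of highest mean FPKM (-0.63, adjusted p = 9.40e-05). That rescaling moved the median of all genes by -0.33, and relative to that shift *Sparc* was at -0.30.

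Markers of other cell types were lower in the same comparison. All 8 adipocyte markers were called lower (median log2 change -5.12), with sums of 17.4 to 62.8 FPKM in αERKO-DES and 911 to 2135 FPKM in WT-DES. All 8 endothelial, 10 leukocyte, 6 T cell, 5 Schwann cell and 4 mesothelial markers and 5 of 6 pericyte markers were called lower too. Conversely, 5 of 9 smooth muscle, 6 of 7 epithelial and 2 of 14 skeletal muscle markers were called higher in αERKO-DES, against 23.7% of all genes. Their part in the lower values of the 9 genes was not tested.

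αERKO-DES was also set against WT-veh, so that the group without receptor but with DES is read against the fully untreated one. The study's design shares its control groups across these comparisons, so they are not independent. Here 5 of the 10 genes fell and 0 rose, against 3.18% of all genes called (1.97% lower), while 7 had an unadjusted p under 0.05, as did 26.4% of all genes. *Lum* fell by 1.26 on the log2 scale (adjusted p = 0.00469), *Dpt* by 0.89 (adjusted p = 0.00126) and *Dcn* by 0.65 (adjusted p = 0.00449). *Fbln1* and *Thy1* fell by 0.66 and 0.62 (adjusted p = 0.0446 and 0.00995). Together with *Postn* and *Sparc*, which were not called, 7 of the 10 were lower without overlap, against 11.1% of all genes. The *Fbln1* call was lost in 17 of the 29 alternatives tried, and leaving out WT-veh sample 2 or αERKO-DES sample 3 left 3 of the 5 calls, with 3.41% and 1.24% of all genes called. Adipocyte markers fell as well, with 7 of 8 called lower (median log2 change -3.32) and sums of 226 to 1132 FPKM in WT-veh and 17.4 to 62.8 FPKM in αERKO-DES. Of the 5 Schwann cell markers 1 was called lower, with sums of 42.9 to 74.3 FPKM and 19.7 to 33.1 FPKM. No marker of the other cell types was called, and the part of either list in the members' falls was not tested.

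The wider stroma was read from 6 lists of 77 genes, of which 74 passed the minimum. In WT-DES versus WT-veh 49 of the 74 rose, 3 fell and 22 were not called, with a median log2 change of 0.74, against 52.7% called (28.9% higher) and a median of -0.01 over all genes. The counts of each list are to be read against those same shares. Apart from decorin and lumican, 5 of 10 small leucine-rich proteoglycans rose, 0 fell and 5 were not called. Among those not called, *Bgn* had a ratio of 1.27 (adjusted p = 0.0279) and *Fmod* of 0.712 (adjusted p = 0.000724), both short of the fold required. *Podn* went from 4.35 ± 0.59 FPKM to 17.9 ± 13.1 FPKM (log2 change 1.62, adjusted p = 0.000442) and *Ogn*, which encodes osteoglycin, from 22.1 ± 1.62 FPKM to 64.4 ± 2.01 FPKM (ratio 2.91, adjusted p = 7.50e-08). Of 16 genes of fibulins and elastic fibres 11 rose and 0 fell. *Ltbp2* and *Ltbp1*, of the family that binds latent TGF-β, rose 4.52-fold and 3.88-fold (adjusted p = 9.62e-07 and 1.26e-07).

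Matricellular genes, which encode secreted proteins that alter how cells meet the matrix, rose in 13 of 18 cases (28.9% of all genes were called higher). *Tgfbi* went from 9.48 ± 1.26 FPKM to 82.5 ± 16.1 FPKM (log2 change 2.98, adjusted p = 2.31e-09) and *Thbs2*, which encodes thrombospondin 2, from 1.68 ± 0.23 FPKM to 21.0 ± 12.8 FPKM (2.90, adjusted p = 3.45e-07). *Spock1*, a testican of the same family as *Sparc*, was the 1 gene of this list that fell, from 1.96 ± 0.29 FPKM to 1.10 ± 0.88 FPKM, and its samples overlapped (adjusted p = 0.0256). Of the large proteoglycan and hyaluronan list 5 of 7 rose, against the same 28.9%, led by the hyaluronan receptor *Cd44*, 4.38-fold (adjusted p = 1.19e-07), and the hyaluronan synthase *Has3*, from 0.615 ± 0.0635 FPKM to 2.47 ± 0.605 FPKM. Leukocytes also carry *Cd44*, and the 10 leukocyte markers, all called higher, summed to 24.8 to 41.6 FPKM in WT-veh and 131 to 226 FPKM in WT-DES. Their part in the *Cd44* result was not tested.

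Ligands of the PDGF receptors were counted as well, and 3 of the 4 rose, against 28.9% of all genes, while *Pdgfa* was not called. *Pdgfc* rose from 7.37 ± 0.43 FPKM to 18.1 ± 3.56 FPKM (adjusted p = 6.40e-07) and *Pdgfb* from 7.04 ± 0.40 FPKM to 14.95 ± 2.31 FPKM (adjusted p = 2.76e-05). Endothelial cells are a known source of PDGF-B, and all 8 endothelial markers were called higher, with sums of 106 to 123 FPKM in WT-veh and 177 to 296 FPKM in WT-DES. Whether those cells account for the ligand values was not tested.

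Genes that mark fibroblasts rose in 12 of 19 cases and fell in 2, against 28.9% and 23.9% of all genes. *Fap*, a membrane protease of activated fibroblasts, rose from 1.52 ± 0.25 FPKM to 8.68 ± 3.17 FPKM (log2 change 1.87, adjusted p = 3.00e-06), and *Tcf21*, a mesenchymal transcription factor, from 33.4 ± 2.41 FPKM to 115 ± 5.92 FPKM (1.75, adjusted p = 1.91e-09). *Dpp4*, a surface peptidase that epithelia carry as well, fell from 61.9 ± 8.84 FPKM to 16.4 ± 5.58 FPKM, and *Nt5e*, the surface nucleotidase CD73, from 35.2 ± 2.59 FPKM to 17.7 ± 3.09 FPKM (adjusted p = 9.57e-07 and 1.51e-06). Epithelial markers, 5 of 7 of which were called lower, summed to 1604 to 1784 FPKM in WT-veh and 881 to 1222 FPKM in WT-DES. Their part in those falls was not tested.

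**Figure D4:**
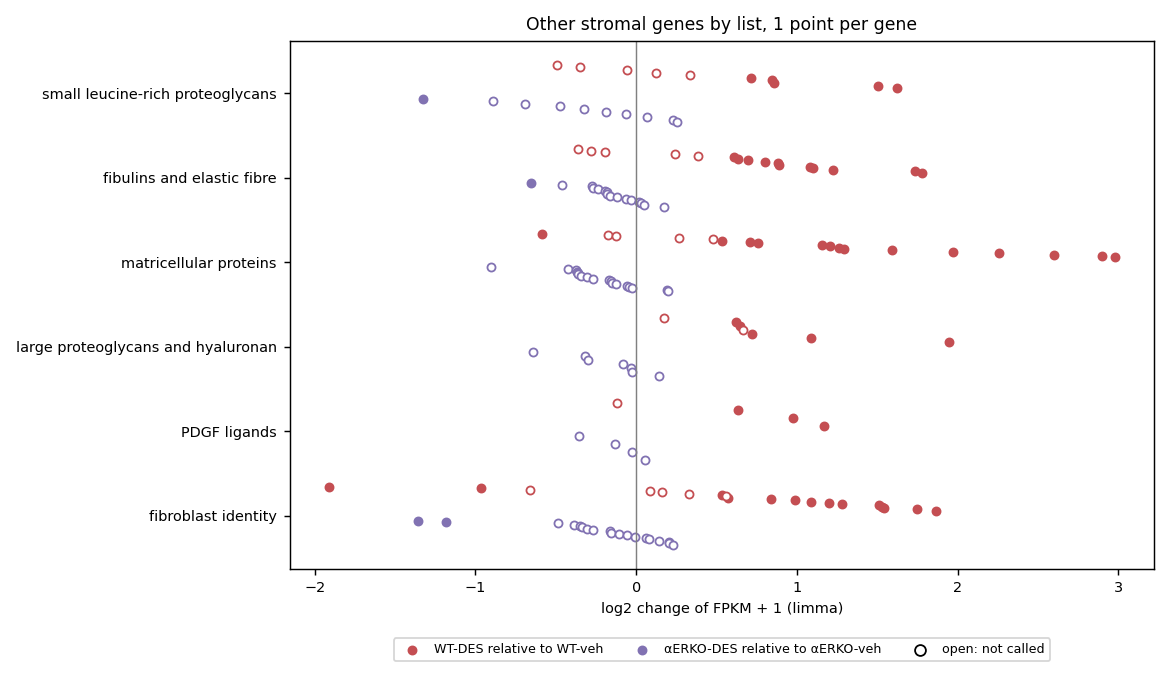
log2 change of FPKM + 1 (horizontal axis) of 74 further stromal genes in 6 lists, a point per gene, with DES relative to vehicle in WT and in αERKO, filled where called. In WT 49 points are filled on the right of 0 and 3 on the left, and in αERKO 4 are filled, all on the left.

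In αERKO-veh versus WT-veh 8 of the 74 rose and 1 fell, that is 12.2% called against 7.12% of all genes (4.50% higher), with a median log2 change of 0.08 against -0.02. At an unadjusted p under 0.05 were 25.7% of the 74, a smaller share than the 38.9% of all genes. Without WT-veh sample 1 or 3 or αERKO-veh sample 2, 5 in all were called, and the share of all genes called was 6.26%, 4.47% and 2.62%. The small proteoglycan genes *Epyc* and *Chad* rose 3.02-fold and 2.68-fold (adjusted p = 0.00670 and 0.00585), and *Mme*, a surface peptidase, rose from 19.3 ± 5.07 FPKM to 51.7 ± 13.3 FPKM. *Spock1* rose 1.89-fold, *Cd44* 1.59-fold, *Pdgfd* 1.55-fold, and *Ltbp1* 1.51-fold, with adjusted p from 0.00489 to 0.0378. *Vcan*, which encodes versican, rose from 9.6 ± 0.41 FPKM to 14.4 ± 1.22 FPKM. *Twist2*, a mesenchymal transcription factor, fell from 24.5 ± 2.26 FPKM to 14.3 ± 1.16 FPKM (adjusted p = 0.00943).

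In αERKO-DES versus αERKO-veh 0 of the 74 rose and 4 fell in limma's test, which is 5.41% called against 1.49% of all genes (1.41% lower), and the median log2 change was -0.16 against 0.02. At an unadjusted p under 0.05 were 18 of the 74, or 24.3%, near the 25.3% of all genes. *Epyc* fell from 2.88 ± 1.01 FPKM to 0.51 ± 0.17 FPKM (adjusted p = 0.0245), *Mme* from 51.7 ± 13.3 FPKM to 19.4 ± 4.08 FPKM (adjusted p = 0.0409), *Clec3b*, which encodes tetranectin, from 39.5 ± 16.8 FPKM to 16.3 ± 5.17 FPKM (adjusted p = 0.0417), and *Ltbp1* from 6.34 ± 1.91 FPKM to 3.55 ± 0.54 FPKM (adjusted p = 0.0407). Without αERKO-veh sample 2 or 4 or αERKO-DES sample 1, 2 or 3, none of the 74 was called, with 11 to 20 at an unadjusted p under 0.05, and over all genes 1 to 3 were called in those settings. Without WT-veh sample 1, 2 or 3 or WT-DES sample 3 or 4 the count was 1 or 2, with 3 to 154 called over all genes. Without αERKO-veh sample 1 it was 7, with 4.08% of all genes called. Against WT-veh 8.11% of the 74 were called, compared with 3.18% of all genes, and 27.0% had an unadjusted p under 0.05, compared with 26.4%. Here αERKO-DES had *Chad* and *Vcan* higher, 3.27-fold and 1.68-fold. *Clec3b*, *Mfap2*, *Mfap5* and *Nov* were lower there, with ratios of 0.285, 0.437, 0.567 and 0.504 (adjusted p from 0.00326 to 0.0350).

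Between αERKO-DES and WT-DES 48 of the 74 were lower in αERKO-DES and 5 higher. This is 71.6% called and 64.9% called lower, against 53.4% and 29.6% of all genes. The interaction was called for 50, with 47 larger in WT and 3 smaller, or 67.6% called and 63.5% called higher, against 56.4% and 29.6% of all genes. The 5 higher genes were *Dpp4*, *Nt5e*, *Spock1*, *Chad* and *Fmod*. The first 3 of these were the genes that fell in WT-DES.

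**Figure D5:**
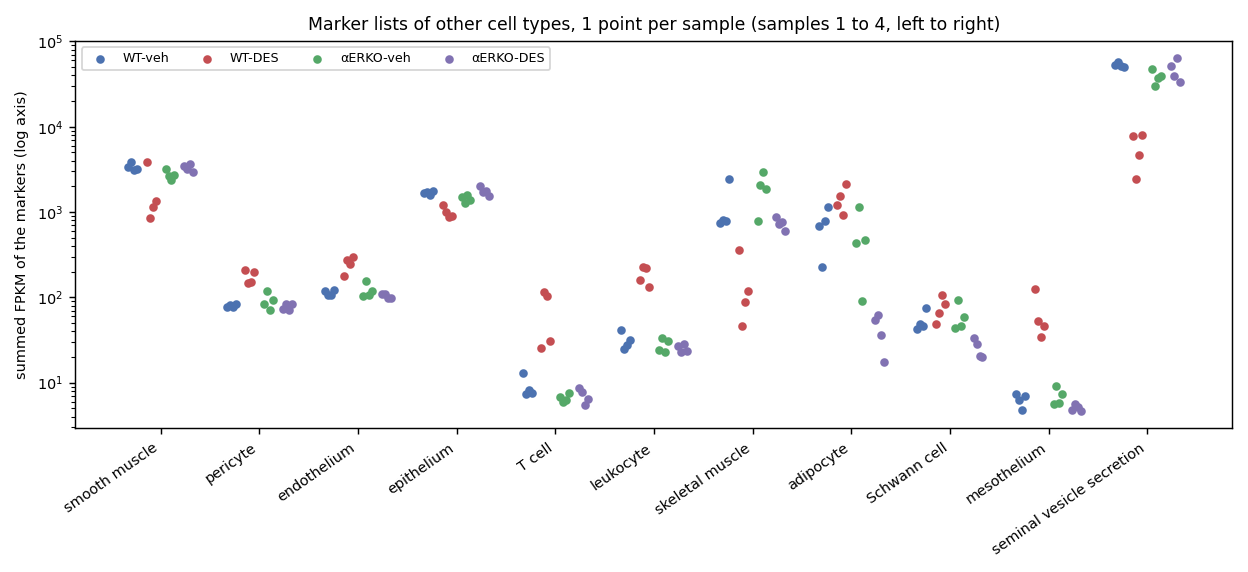
Summed FPKM of marker genes of other cell types (vertical axis, log scale), a point per sample in the order 1 to 4, in the 4 groups. WT-DES sample 1 has 3881 FPKM of smooth muscle markers against 862 to 1351 FPKM in the other WT-DES samples, and αERKO-DES lies at 17.4 to 62.8 FPKM for adipocyte markers.

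Likeness of profiles was measured as the root mean square difference between log2(FPKM + 1) profiles over the 16 samples, each centred on its own mean, a description that carries no test. Among the members *Pdgfra* and *Pdgfrb* were the closest pair, at 0.21, followed by *Dcn* and *Postn* at 0.26, while the neighbours *Dcn* and *Lum* were 0.72 apart. *Lum* was closest to *Fbln1*, at 0.34, and *Dpt* to *Thy1*, at 0.33. Outside the members, the 3 nearest genes were *Kctd12*, *Ankrd44* and *Pros1* for *Pdgfra*, *Pear1*, *Usp11* and *Clip3* for *Pdgfrb*, and *Adc*, *Rgl1* and *Dennd2a* for *Dcn*. They were *Gpc3*, *Fcgr2b* and *Steap3* for *Lum*, *Col5a3*, *Col3a1* and *Thra* for *Dpt*, and *Lpp*, *Atrn* and *Col8a1* for *Fn1*. For *Postn* they were *Mamdc2*, *Stard13* and *Sulf2*, for *Fbln1* *Dkk3*, *Cd53* and *Col14a1*, for *Thy1* *Fyb*, *Traf5* and *Twist2*, and for *Sparc* *Slc25a14*, *Oaz2* and LOC101056043. The nearest distances ran from 0.09 for *Pear1* and *Pdgfrb* to 0.28 for *Lpp* and *Fn1*.

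The nearest genes of *Dpt* included fibrillar collagens. *Col3a1*, the main chain of type III collagen, had means of 228 FPKM in WT-veh, 401 FPKM in WT-DES, 204 FPKM in αERKO-veh and 138 FPKM in αERKO-DES, the order of the *Dpt* means. *Cd53*, *Fcgr2b* and *Fyb*, near *Fbln1*, *Lum* and *Thy1* in that order, are genes of leukocytes.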

How the data were processed

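RNA-seq was made from the seminal vesicles of mice in 16 samples, 4 for each genotype and treatment, grouped by GEO's labels. The authors made the deposited FPKM table with TopHat2 2.0.4 and Cufflinks 2.0.2 on mm10, as the submitters' processing notes list them. The gene annotation and any scaling between libraries are not given in the sources used here, and depth per sample is unknown. A few very abundant genes can shift the FPKM of all others in the same library.

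Values were transformed to log2(FPKM + 1), a scale that understates changes of low genes, and fitted with limma 3.58.1 (R 4.3.3). All 16 samples entered 1 model with group means, moderated with a variance trend, and p-values were adjusted by the Benjamini-Hochberg method across 15988 genes (mean above 1 FPKM in at least 1 group). A gene was called where the adjusted p was 0.05 or less, the means differed by 1.5-fold or more and a compared mean exceeded 1 FPKM, an interaction where the adjusted p was 0.05 or less and the log2 difference amounted to 1.5-fold. The steps were tested on simulated data. P-values weigh a difference of group means against the spread between samples within groups, estimated over all 4 groups.

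The members and lists were chosen with earlier results of these data known. The genes named are the members, *Esr1*, in each further list the 2 largest rises and 2 largest falls among those called in WT-DES versus WT-veh and up to 2 called in each comparison among the other groups, and for each member the 3 nearest profiles among genes with a mean of at least 1 FPKM in every group. *Pdgfa*, *Bgn* and the 5 genes higher in αERKO-DES than in WT-DES were named after their values were seen. Promoters are from RefSeq on GRCm38.p6 and coordinates and transcript lengths from GENCODE M21.

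Alternatives were quantile normalization, median-ratio scaling, rescaling without the 20 genes of highest mean FPKM, a correction for transcript length (lowess, span 0.3), a pseudocount of 0.1, a minimum of 5 FPKM or none, the fold from log2 values, separate models for each pair of groups, no variance trend, sample weights, a replicate block, a threshold of 0.01, and the omission of each sample in turn.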

Additional observations from a re-analysis of the deposited data

Results flagged for a closer look

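WT-DES sample 1 was far from the other 3 samples of its group for *Fn1*, at 180.0 FPKM against 38.7 to 53.8 FPKM, with a ratio of gap to range of 0.893, and for *Fbln1*, at 284 FPKM against 185 to 201 FPKM, with a ratio of 0.84, both above Dixon's 95% critical value for 4 samples. Over the 40 sets of 4 samples compared in this way (10 genes in 4 groups), chance gives such a ratio in about 5% of sets. The same sample had the highest smooth muscle and mesothelial marker sums of its group, 3881 FPKM and 127 FPKM, and their part in these values was not tested.

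The change with DES differed between WT and αERKO in limma's interaction test for 8 of the 10 genes, each with the larger value in WT, against 56.4% of all genes called and 29.6% called higher. The difference in log2 change was 2.38 for *Pdgfra*, 1.84 for *Pdgfrb*, 2.07 for *Dcn*, 3.47 for *Lum*, 1.09 for *Dpt*, 1.46 for *Fn1*, 1.92 for *Postn* and 3.38 for *Fbln1*. The *Fn1* call was lost in 10 of the 28 alternatives tried, with adjusted p from 0.00386 to 0.158 over all of them. In WT-DES versus WT-veh all of these but *Dpt* were called higher, and in αERKO-DES versus αERKO-veh *Dcn* and *Dpt* were called lower and the other 6 were not called.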

How the results depend on the processing

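Over 29 alternatives, 1642 of 1730 changes of single members kept their direction and call, or were called in neither setting (24 of these changed sign). Of the others, 61 lost the call, 25 gained it and 2 reversed. Both reversals were *Sparc* with quantile normalization, at 1.05 in WT-DES versus WT-veh (adjusted p = 1.24e-05) and 1.25 in the interaction (adjusted p = 8.32e-05). The cause was not tested.

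The 7 members called higher in WT-DES versus WT-veh were called in every alternative. The count ran from 7 to 10, with 45.6% to 54.2% of all genes called. *Dpt* and *Thy1* were also called with quantile normalization (1.13 each), rescaling without the 20 genes of highest mean FPKM (0.92 and 0.95) and the correction for transcript length (0.74 and 0.78). That rescaling moved the median of all genes by 0.38 in this comparison, 0.14 in αERKO-veh versus WT-veh, -0.10 in αERKO-DES versus αERKO-veh, -0.33 in αERKO-DES versus WT-DES and 0.50 in the interaction. Relative to that shift *Dpt* changed by 0.54 and *Thy1* by 0.58. It moved the share of higher calls among all genes called from 54.7% to 79.2% in WT-DES versus WT-veh, from 63.1% to 92.4% in αERKO-veh versus WT-veh, from 44.5% to 23.6% in αERKO-DES versus WT-DES, from 38% to 52.3% in αERKO-DES versus WT-veh and from 52.4% to 78.8% in the interaction. Quantile normalization moved it to 59.2% in αERKO-DES versus WT-veh and from 5.86% to 60% in αERKO-DES versus αERKO-veh, where it called few genes.

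In αERKO-veh versus WT-veh 2 members were called with that rescaling, *Pdgfra* being added (0.55). Relative to the shift of all genes *Pdgfra* changed by 0.41, and 9.71% of all genes were called against 7.12%. When any sample was left out 1 member was called, with 2.62% to 10.6% of all genes called. In αERKO-DES versus αERKO-veh the count was 0 with limma on only the groups compared, with quantile normalization and at an adjusted p of 0.01 (7, 6 and 7 members at an unadjusted p under 0.05, and 6, 5 and 2 calls over all genes against 239), 5 with sample weights (1119 calls over all genes), and 0 to 5 when a sample was left out. In αERKO-DES versus WT-DES the count ran from 8 to 10 (47.3% to 55.5% of all genes called). In the interaction it ran from 7 to 10 (41.0% to 59.8%). In αERKO-DES versus WT-veh it was 2 with quantile normalization and 3 with rescaling (382 and 407 calls over all genes against 508). When a sample was left out it was 3 to 5, with 1.24% to 5.52% of all genes called.

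The labels do not say whether equal replicate numbers mark shared origin. Deviations of same-numbered samples correlated at -0.22 to 0.28, and 3 of 16 samples correlated best with their own number. With so few samples these values cannot exclude a shared origin. With the replicate block 7, 1, 2, 8, 4 and 7 members were called, in the order of the comparisons in the report with the interaction last. In the same order 52.6%, 7.04%, 1.55%, 53.3%, 2.46% and 56.2% of all genes were called. Without the block these shares were 52.7%, 7.12%, 1.49%, 53.4%, 3.18% and 56.4%. *Fn1* was lost in αERKO-DES versus WT-DES and in the interaction (adjusted p = 0.0509 in both) and *Fbln1* in αERKO-DES versus WT-veh (0.0528). The model of only the groups compared gives no interaction. Depth cannot be read from FPKM.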
